A study of Mus musculus with 9 samples.

Results

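Mitosis genes encode the proteins that take a cell from late G2 through division. The set described here held 40 genes of mouse, chosen by name for a known part in G2 or mitosis. A gene was read from a probe set that the platform annotation ties to that gene symbol alone. Where a gene had several such probe sets, the one with the highest mean log2 intensity over all 9 arrays stood for it. By this rule 39 of the 40 genes were measured, 1 probe set each, among 18193 genes so named on 45037 probe sets. Ccnb1, the cyclin B1 gene, had no probe set that carried its symbol alone and is not analysed here. All 39 genes passed the filter on dim signals, and all 39 lay above the array's control level on all 9 arrays.

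The arrays were Affymetrix Mouse 430 2.0 chips hybridised with RNA from cultured lung cells of Nrf2-deficient and wild-type mice. Nrf2, encoded by Nfe2l2, is a transcription factor that induces antioxidant and detoxification genes. There were 3 groups of 3 arrays: Nrf2-/- cells supplemented with GSH, the usual abbreviation of the tripeptide antioxidant glutathione, Nrf2-/- cells without supplement, and Nrf2+/+ cells. The labels put all mice in the ICR10 strain, female and 2 months old, and give no animal count beyond 1 tissue per array. In all groups the lungs were digested with Dispase II for 45 min and macrophages and fibroblasts were reduced by adhesion to plates. What remained, labelled type II cells (the alveolar epithelial cells that make surfactant), was cultured for 5 days with keratinocyte growth factor, which promotes epithelial growth, on plates coated with fibronectin and collagen. No source used here gives the dose, timing or purpose of the GSH supplement, and the treatment field is the same (none) for all arrays. P-values rest on how far arrays of a group spread, possibly for technical reasons alone, and precision is limited by how few arrays there are.

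Entry into mitosis is driven by cyclin-dependent kinase 1 bound to A- and B-type cyclins, and exit follows when the anaphase-promoting complex marks those cyclins and securin for destruction. Between these steps the spindle is built by motor proteins, the kinetochores attach chromosomes to it, and a checkpoint delays anaphase until attachment is complete. Transcripts of most of these proteins peak in G2 and mitosis, so in a mixed culture their level is widely read as a sign of dividing cells. Their promoters are known for a cell cycle homology region (CHR), bound by the DREAM and MuvB complexes, which often lies a short way from CCAAT boxes bound by NF-Y.

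The targeted gene, Nfe2l2, was read by 2 probe sets. The brighter one gave 45.3, 46.2 and 33.3 in Nrf2-/- cells with GSH, 73.6, 77.4 and 28.7 in Nrf2-/- cells, and 3879, 3890 and 4173 in Nrf2+/+ cells, so it followed the labels. The other Nfe2l2 probe set averaged 148 in Nrf2-/- cells with GSH, 46.7 in Nrf2-/- cells and 42.2 in Nrf2+/+ cells. Sex-linked transcripts did not follow the common female label. Xist, by its brightest probe set, averaged 3510.0 in Nrf2-/- cells with GSH, 3203 in Nrf2-/- cells and 157 in Nrf2+/+ cells, whereas the Y-linked Eif2s3y, likewise, averaged 7.43, 9.27 and 801 in the same order of groups. In comparisons with Nrf2+/+ cells, genotype and this difference cannot be told apart. In this culture labelled type II, the surfactant transcript Sftpc averaged 107.8 in Nrf2-/- cells with GSH, 89.1 in Nrf2-/- cells and 37.3 in Nrf2+/+ cells, where it stayed within the control level on all 3 arrays. Sftpb averaged 356, 241 and 338, and Sftpd 349, 218 and 448, in the same order of groups, above the control level on all arrays. The fibroblast transcript Col1a1 averaged 5957, 20178 and 14854 in the same order. By a number in the titles whose meaning no source states, each group has 2 arrays in set 2 and 1 in set 3. The median intensity of the 39 mitosis genes was 803, 818 and 884 on the arrays of Nrf2-/- cells with GSH, 1354, 1502 and 1596 on those of Nrf2-/- cells, and 1192, 1196 and 1233 on those of Nrf2+/+ cells, so the groups did not overlap.

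**Figure D1:**
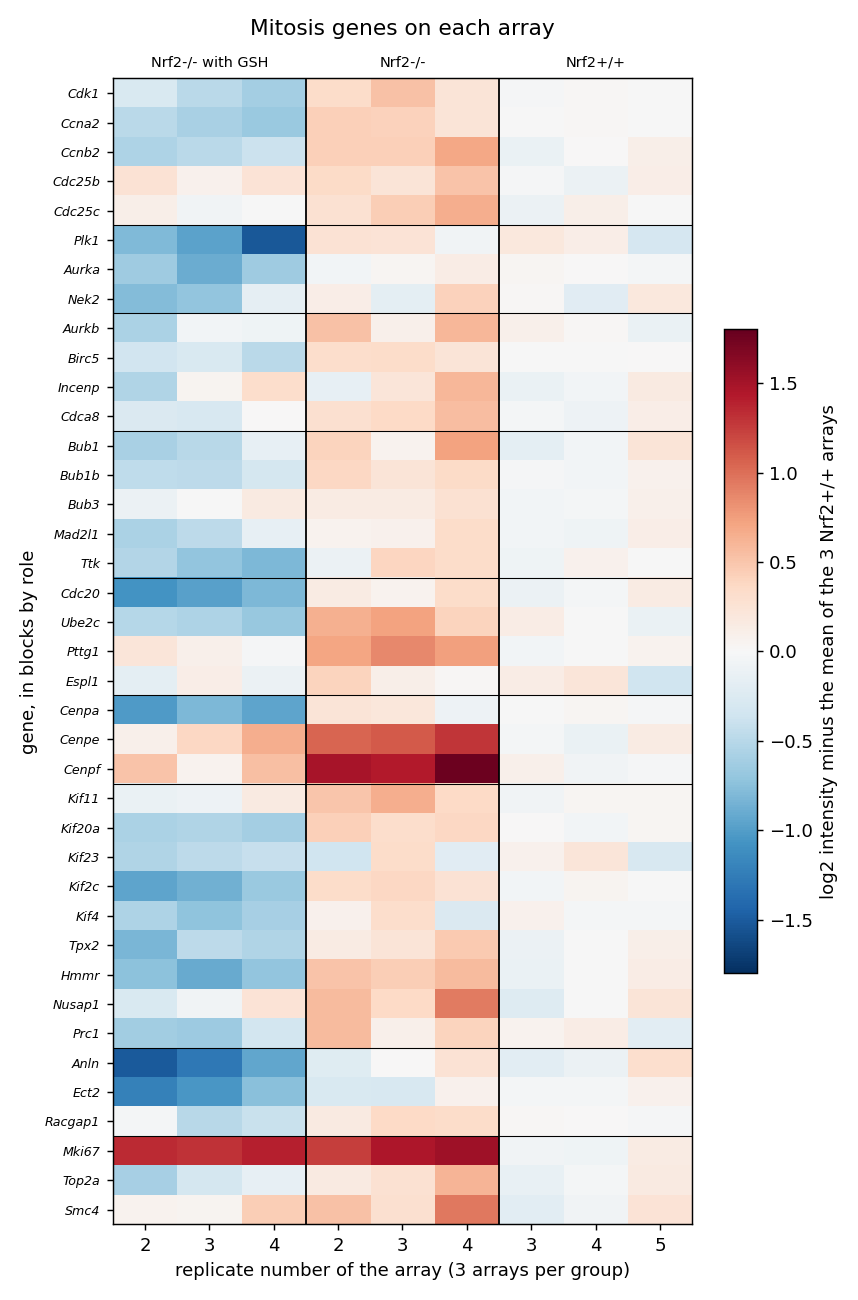
Log2 intensity of the 39 mitosis genes (rows, ordered by role) on the 9 arrays (columns: Nrf2-/- with GSH, Nrf2-/-, Nrf2+/+), each minus that gene's mean over the 3 Nrf2+/+ arrays. Most rows are lowest on the GSH arrays and highest on the Nrf2-/- arrays, while Mki67 is high on all 6 Nrf2-/- arrays.

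The promoters were examined because the genes share a known promoter class and moved together. RefSeq promoter entries (build GRCm38.p6, 250 bases before to 50 after each annotated gene start) were found for 32 of the 39 measured genes, with none for Aurkb, Ccna2, Cdc25c, Incenp, Kif20a, Smc4 and Tpx2. Both strands were searched for TTTGAA, the canonical CHR letters (TTCAAA on the other strand), for the variant TTTAAA (its own reverse complement) and for CCAAT, which reads ATTGG on the other strand. A CCAAT match can share bases with its own reverse, as once in Ube2c, and an end base with the other motifs. TTTGAA stood in the promoters of 24 of the 32 genes (75%), against 20.2% of all 27025 genes with an entry. CCAAT stood in 26 of 32 (81.2%), against 41.1% of all genes, and both together in 22 of 32 (68.8%), against 8.97%. The median GC content was 58.3% for the mitosis genes and 52.8% for all genes. Within 60 bases before to 50 bases after the start, TTTGAA was found in 22 of 32 mitosis genes (68.8%) and in 6.36% of all genes. TTTAAA was found in 7 of 32 (21.9%), against 14.9%. The 8 genes with no TTTGAA in this window of 300 bases were Birc5, Bub1, Cdc25b, Cenpe, Mad2l1, Nek2, Nusap1 and Pttg1. A match describes the letters and does not show binding.

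The 6 promoters shown were picked because they belong to the genes that departed from the rest (Mki67, Cenpe and Cenpf) and to those with TTTGAA whose difference between GSH-supplemented and unsupplemented Nrf2-/- cells had the smallest p (Cdc20, Ube2c and Hmmr). Capitals mark TTTGAA, its variant TTTAAA and the box CCAAT on either strand, and each sequence runs 5′ to 3′ on the strand of its gene: Mki67 at chr7:135716330-135716629 (minus), Cenpe at chr3:135212313-135212612 (plus), Cenpf at chr1:189688037-189688336 (minus), Cdc20 at chr4:118437294-118437593 (minus), Ube2c at chr2:164769679-164769978 (plus) and Hmmr at chr11:40733388-40733687 (minus).
Mki67: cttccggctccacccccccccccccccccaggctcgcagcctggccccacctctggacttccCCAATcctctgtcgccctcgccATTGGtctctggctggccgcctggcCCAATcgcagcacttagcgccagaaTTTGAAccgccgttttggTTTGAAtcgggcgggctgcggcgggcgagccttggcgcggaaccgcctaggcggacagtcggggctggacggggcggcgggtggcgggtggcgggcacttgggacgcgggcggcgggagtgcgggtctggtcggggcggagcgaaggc
Cenpe: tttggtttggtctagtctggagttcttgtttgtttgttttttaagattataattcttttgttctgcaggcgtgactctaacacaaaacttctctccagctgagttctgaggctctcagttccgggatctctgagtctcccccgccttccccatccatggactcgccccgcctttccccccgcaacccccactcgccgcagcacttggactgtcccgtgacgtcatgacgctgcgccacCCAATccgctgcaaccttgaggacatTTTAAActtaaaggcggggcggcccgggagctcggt
Cenpf: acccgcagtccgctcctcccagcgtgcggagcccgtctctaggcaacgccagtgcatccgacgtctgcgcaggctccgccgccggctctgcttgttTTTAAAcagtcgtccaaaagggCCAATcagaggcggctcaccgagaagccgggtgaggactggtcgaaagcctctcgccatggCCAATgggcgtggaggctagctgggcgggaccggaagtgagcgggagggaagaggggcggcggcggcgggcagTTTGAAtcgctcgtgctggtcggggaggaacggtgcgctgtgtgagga
Cdc20: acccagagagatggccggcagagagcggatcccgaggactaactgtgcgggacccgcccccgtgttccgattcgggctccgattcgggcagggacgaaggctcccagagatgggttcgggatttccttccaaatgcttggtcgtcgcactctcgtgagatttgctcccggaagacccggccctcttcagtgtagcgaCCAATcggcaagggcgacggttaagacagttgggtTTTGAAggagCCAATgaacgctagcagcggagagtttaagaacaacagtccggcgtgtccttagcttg
Ube2c: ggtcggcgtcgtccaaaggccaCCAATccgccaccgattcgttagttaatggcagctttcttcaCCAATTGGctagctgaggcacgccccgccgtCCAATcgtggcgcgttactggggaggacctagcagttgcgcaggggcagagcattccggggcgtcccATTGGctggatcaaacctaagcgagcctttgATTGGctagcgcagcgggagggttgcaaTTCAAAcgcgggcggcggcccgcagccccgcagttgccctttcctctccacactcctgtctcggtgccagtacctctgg
Hmmr: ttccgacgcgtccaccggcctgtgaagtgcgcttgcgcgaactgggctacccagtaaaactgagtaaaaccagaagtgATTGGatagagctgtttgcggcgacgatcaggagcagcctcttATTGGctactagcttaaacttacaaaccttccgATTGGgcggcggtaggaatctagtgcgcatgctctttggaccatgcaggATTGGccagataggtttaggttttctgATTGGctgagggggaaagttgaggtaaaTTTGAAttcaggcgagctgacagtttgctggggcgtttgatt
In Mki67 the 2 TTTGAA matches lay 116 and 98 bases before the start of the promoter entry, farther than in most of the others. Among genes with TTTGAA only Mki67 and Kif2c had none in the nearer window. For both, the RefSeq gene range reaches farther upstream than that start, for Mki67 to chr7:135716450, within the promoter shown. Their distances therefore depend on the start used. Cenpe held no TTTGAA but had TTTAAA 15 bases after the start, and Cenpf held TTTGAA 3 bases after it. The match lay 18 bases before the start in Cdc20, 29 before it in Ube2c on the opposite strand, and 9 after it in Hmmr. So the 3 departing genes did not share one arrangement of these letters.

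**Figure D2:**
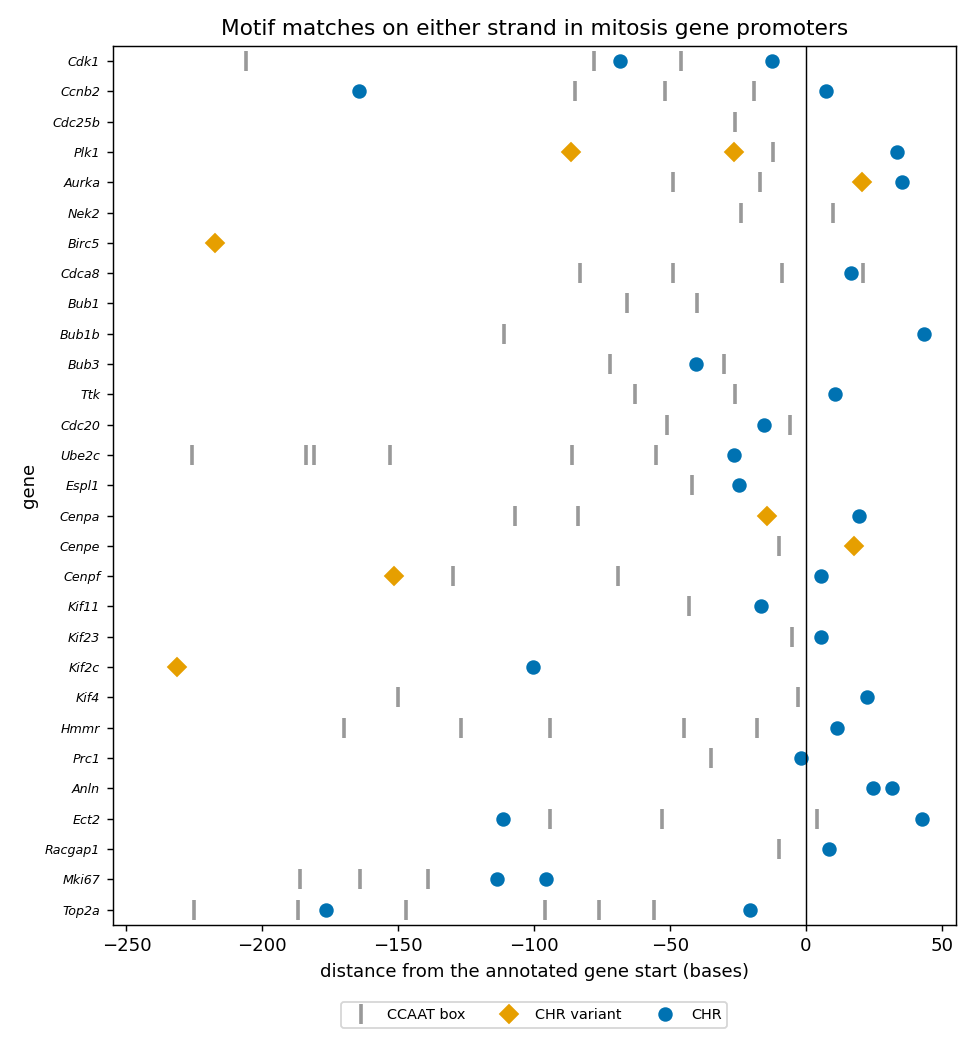
Positions of the canonical CHR letters, the CHR variant and the CCAAT box in the first promoter entry of each mitosis gene with a match, in bases from the annotated gene start (Mad2l1, Nusap1 and Pttg1 had no match and no row). In 22 of the 32 genes a canonical match falls within 60 bases before to 50 bases after the start.

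Nrf2-/- cells were first set against Nrf2+/+ cells, the contrast that the series title names. Mitosis genes were higher in Nrf2-/- cells or did not pass the test, and none was lower. At an adjusted p under 0.05 (limma), 23 of the 39 were higher and 0 lower, and 16 were not called. Over all 22519 probe sets tested, 29.1% were called, 14.6% higher and 14.6% lower. The median log2 change was 0.35 over the mitosis genes and 0.0026 over all probe sets, and 37 of 39 changes were positive. The 3 arrays of Nrf2-/- cells all lay above the 3 of Nrf2+/+ cells for 22 genes, a pattern that 15.8% of all probe sets showed. In such bulk cultures a change in the number of dividing cells and a change in transcript per dividing cell cannot be told apart.

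Only Mki67, Cenpf and Cenpe were at least 2-fold higher in Nrf2-/- cells among the called mitosis genes. Over all probe sets the quartiles of the log2 change were -0.21 and 0.23, and the share at least 2-fold higher was not counted. Mki67 encodes Ki-67, a coat protein of mitotic chromosomes that is used as a proliferation marker. It read 2993, 3457 and 3620.5 in Nrf2-/- cells, against 1208, 1196 and 1395 in Nrf2+/+ cells, with no overlap. The log2 change was 1.41 (SE 0.069, adjusted p = 8.5e-08, limma), or 2.65-fold. Cenpf encodes a large protein of the outer kinetochore. It read 868, 835 and 1054 in Nrf2-/- cells, against 329, 296 and 304 in Nrf2+/+ cells, a log2 change of 1.56 (SE 0.14, adjusted p = 6.9e-06). Cenpe, the kinetochore kinesin that carries chromosomes to the spindle equator, read 741, 766 and 870.0 in Nrf2-/- cells, against 349, 331 and 397 in Nrf2+/+ cells. Its log2 change was 1.14 (SE 0.11, adjusted p = 1.5e-05). Both kinetochore genes thus also stood apart without overlap. The other 36 genes ranged from -0.16 for Ect2 to 0.77 for Pttg1, so the 3 genes lay beyond the whole range of the rest. The centromeric histone gene Cenpa, the third gene of the centromere group, read 1968, 1923 and 1565 in Nrf2-/- cells, against 1662, 1718 and 1645 in Nrf2+/+ cells. These values overlapped (log2 change 0.11, adjusted p = 0.37).

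Among the entry kinase and cyclins, 4 of 5 were higher. They were Cdk1, the mitotic kinase itself (0.37), Ccna2, its cyclin A2 partner (0.36), Ccnb2, cyclin B2 (0.52), and Cdc25b, a phosphatase that removes the brake on the kinase (0.37). The related phosphatase gene Cdc25c changed by 0.46 but was not called (adjusted p = 0.06). None of the 3 mitotic kinase genes was called: Plk1, which acts at centrosomes, kinetochores and the midbody, changed by 0.15, Aurka, the spindle pole kinase, by 0.04, and Nek2, a centrosome kinase, by 0.12. Aurka read 1335, 1406 and 1508 in Nrf2-/- cells, against 1413, 1381 and 1343 in Nrf2+/+ cells, which overlapped.

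The chromosomal passenger complex corrects faulty attachments and later directs cytokinesis. Of its 4 genes, Birc5 (survivin, 0.29) and Cdca8 (borealin, 0.40) were higher, while the kinase gene Aurkb (0.41, adjusted p = 0.079) and the scaffold gene Incenp (0.22, adjusted p = 0.29) were not called. Of 5 spindle checkpoint genes 3 were higher, namely the kinase gene Bub1 (0.40), Bub1b, which encodes the checkpoint protein BubR1 (0.32), and their binding partner Bub3 (0.19). Mad2l1, which encodes the Mad2 inhibitor of Cdc20 (0.16), and Ttk, the Mps1 kinase that starts the checkpoint (0.20), were not called. Of 4 anaphase genes, Pttg1, which encodes the separase inhibitor securin, showed the largest change after the 3 departing genes. It read 7424, 8263 and 7519 in Nrf2-/- cells, against 4358, 4506 and 4716 in Nrf2+/+ cells, a log2 change of 0.77 (SE 0.073, adjusted p = 1.4e-05). Ube2c, the ubiquitin-conjugating enzyme of the anaphase-promoting complex, read 3972, 4218 and 3349 in Nrf2-/- cells, against 2795, 2529.8 and 2342 in Nrf2+/+ cells (0.59). Neither gene's groups overlapped. Cdc20, the activator of that complex, was called at 0.18 (adjusted p = 0.043) with overlapping arrays, and Espl1, the separase gene, was not called (0.18).

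Of 9 kinesin and spindle genes 6 were higher: the spindle-separating motor Kif11 (0.50), the midzone motor Kif20a (0.38), the microtubule depolymerase Kif2c (0.32), the microtubule nucleation factor Tpx2 (0.28), the hyaluronan and spindle-binding protein gene Hmmr (0.51) and the microtubule bundler Nusap1 (0.62). Nusap1 read 1245, 1085 and 1608 in Nrf2-/- cells, against 720.0, 842 and 987 in Nrf2+/+ cells, without overlap (adjusted p = 0.00057). The centralspindlin motor gene Kif23 (-0.08), the chromokinesin gene Kif4 (0.04) and the midzone bundler Prc1 (0.35, adjusted p = 0.074) were not called. The cytokinesis group had 0 of 3 higher. Anln, whose product anillin scaffolds the contractile ring, read 2484, 2904 and 3472 in Nrf2-/- cells, against 2533, 2692 and 3573 in Nrf2+/+ cells (0.01, 95% interval -0.17 to 0.19). Ect2, the exchange factor that activates RhoA at the cell equator, read 1548, 1524 and 1979 in Nrf2-/- cells, against 1822, 1822 and 1963 in Nrf2+/+ cells (-0.16, adjusted p = 0.17). In both genes the arrays overlapped. Racgap1, the partner of Kif23 in centralspindlin, changed by 0.28 (adjusted p = 0.086). Besides Mki67, the chromosome structure group held Top2a, the decatenating topoisomerase (0.35), and Smc4, a condensin subunit (0.59), both called higher.

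Without the term for the set 11 of the 39 genes were called higher, with each array centred on its median 13, and by the submitters' 1.5-fold rule 4, each time with 0 lower. Over all probe sets 6560 were called in the main model, 2774 without the set term and 5873 with median centring. No such count was made for the fold rule. The 4 genes called higher in all 22 alternatives were Mki67, Cenpe, Cenpf and Pttg1. The fold rule is 1 of the 22 and by itself limits this list to 4. Ccnb2, Cdca8, Hmmr and Ube2c kept the call in 21. Within set 2, 36 of 39 differences were positive, and 36 of 39 were positive in set 3, where each group has 1 array.

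**Figure D3:**
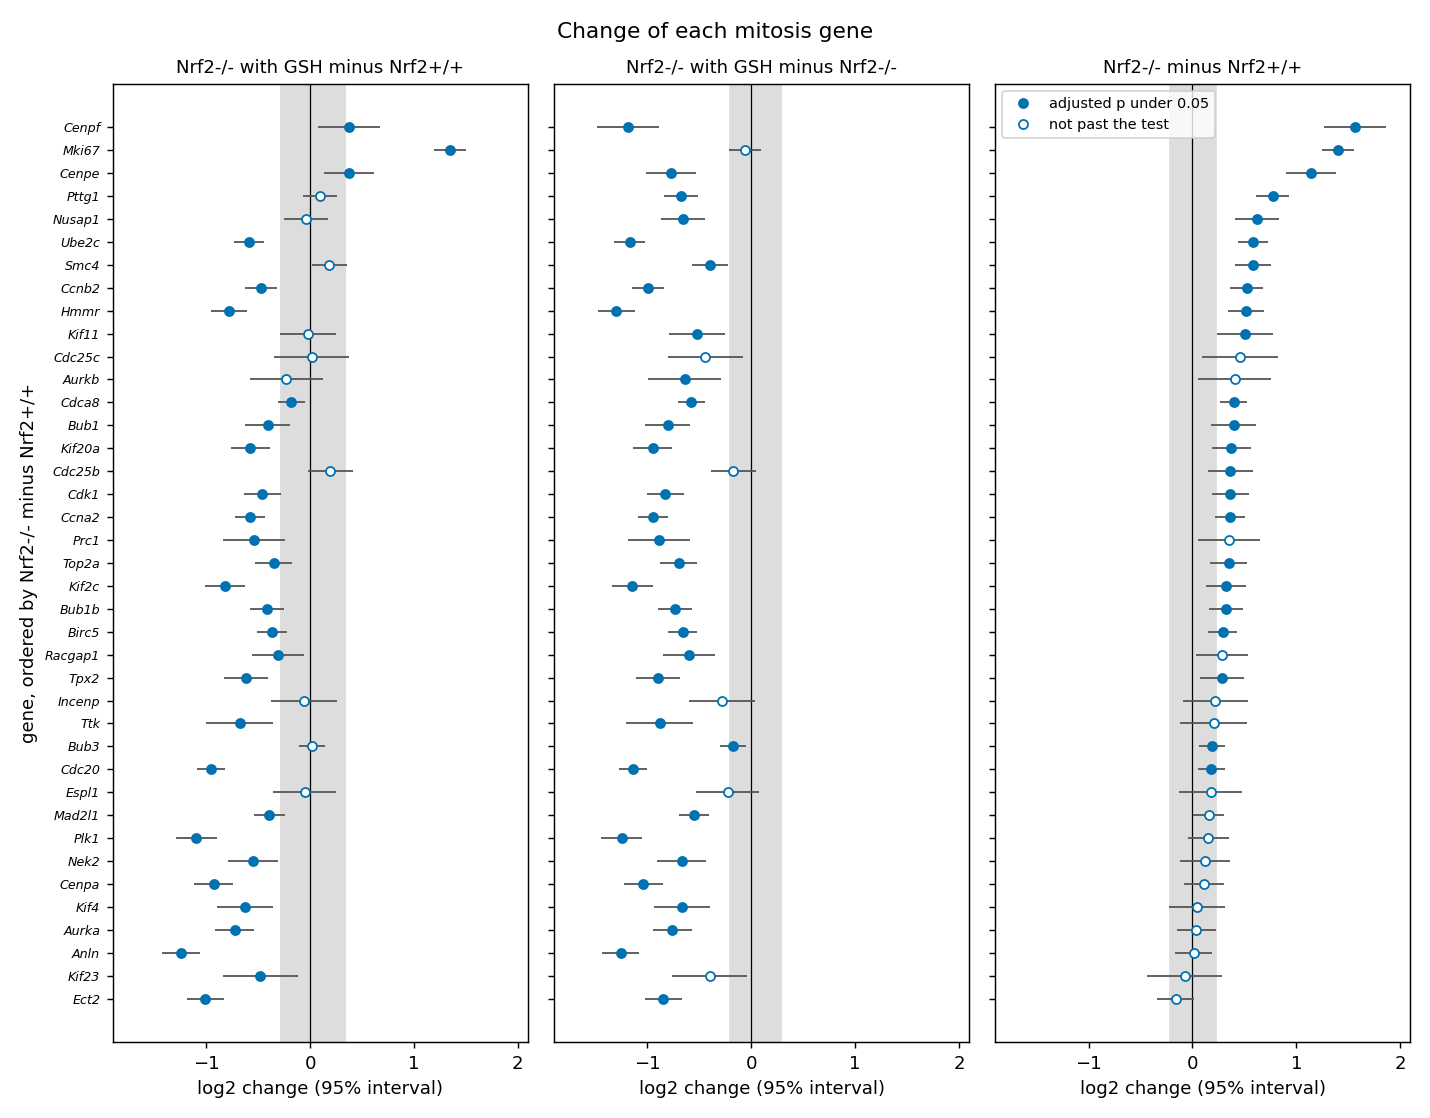
Log2 change of each of the 39 mitosis genes with its 95% interval in 3 panels (Nrf2-/- with GSH minus Nrf2+/+, Nrf2-/- with GSH minus Nrf2-/-, and Nrf2-/- minus Nrf2+/+). Filled points passed an adjusted p of 0.05, and the grey band spans the quartiles of all probe sets. Without GSH, Mki67, Cenpf and Cenpe lie beyond the other 36 genes, and with GSH Mki67 alone stays close to 0 against Nrf2-/- cells among the 3.

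GSH-supplemented Nrf2-/- cells were then set against Nrf2-/- cells without supplement. Every one of the 39 changes was negative. At the same threshold 33 genes were lower, 0 higher and 6 not called, against 17% of all probe sets called lower, 18.4% higher and 35.4% in all. The median log2 change was -0.73 over the mitosis genes and 0.04 over all probe sets. Arrays did not overlap, with GSH lower, for 32 genes, against 16.4% of all probe sets. All 39 differences were negative within set 2 and within set 3. The 8 genes at least 2-fold lower were Hmmr, Anln, Plk1, Cenpf, Ube2c, Kif2c, Cdc20 and Cenpa. Over all probe sets the quartiles of the log2 change were -0.21 and 0.29, and the share at least 2-fold lower was not counted.

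Hmmr showed the largest fall. It read 677, 599 and 691 in Nrf2-/- cells with GSH, against 1612, 1539 and 1679 in Nrf2-/- cells, a log2 change of -1.30 (SE 0.079, adjusted p = 2.1e-07). Anln read 1019, 1189.6 and 1513 with GSH, against 2484, 2904 and 3472 without (-1.26, adjusted p = 3.5e-07). Plk1 read 648, 578 and 391 with GSH, against 1354, 1342 and 1079.5 without (-1.25, adjusted p = 8.5e-07). The groups were apart for all 3 genes, although neither Anln nor Plk1 had been called between Nrf2-/- and Nrf2+/+ cells. Ube2c read 1788, 1732 and 1583 with GSH, against 3972, 4218 and 3349 without (-1.17, adjusted p = 1.1e-07). Cdc20 read 1468, 1565 and 1756 with GSH, against 3409, 3227 and 3898 without (-1.14, adjusted p = 6.6e-08). Both belong to the machinery that ends mitosis by protein destruction. Kif2c read 547, 579 and 664 with GSH, against 1321, 1360.4 and 1263 without (-1.14), and its brightest probe set not ending in _x_at changed by -0.57 (adjusted p = 0.0033). Cenpa read 825, 954 and 868 with GSH, against 1968, 1923 and 1565 without (-1.04).

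By role, all 3 mitotic kinase genes were lower with GSH, as were all 5 spindle checkpoint genes, all 3 centromere and kinetochore genes and all 3 cytokinesis genes. Of the kinesin and spindle genes 8 of 9 were lower, and Kif23 was not called (-0.40, adjusted p = 0.078). Of 4 passenger complex genes 3 were lower, without Incenp (-0.28, adjusted p = 0.16). Of 4 anaphase genes 3 were lower, without Espl1 (-0.23, adjusted p = 0.23). Among the entry genes Cdk1 (-0.83), Ccna2 (-0.94) and Ccnb2 (-1.0) were lower, whereas neither phosphatase gene was called, Cdc25b at -0.17 and Cdc25c at -0.44. Cdc25b read 593, 519 and 582 with GSH, against 626, 579.7 and 705 without, which overlapped. Bub3 had the smallest change of the called genes, -0.17 with overlapping arrays (adjusted p = 0.034). With the replicate number as a block, which pairs these 2 groups, Bub3 was not called (-0.17, adjusted p = 0.15).

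The 3 genes that had risen farthest in Nrf2-/- cells parted here. Mki67 read 3204, 3102 and 3348 in Nrf2-/- cells with GSH, against 2993, 3457 and 3620.5 in Nrf2-/- cells. These ranges overlapped, and the log2 change of -0.06 (95% interval -0.21 to 0.10, adjusted p = 0.57) was the closest to 0 of the 39. In contrast Cenpf read 443, 323 and 449 with GSH, against 868, 835 and 1054 without (-1.19, SE 0.14, adjusted p = 3.4e-05). Cenpe read 381, 464 and 561 with GSH, against 741, 766 and 870.0 without (-0.77, SE 0.11, adjusted p = 0.00019). Both kinetochore genes therefore fell without overlap, within the range of the other 36 genes (-1.30 for Hmmr to -0.17 for Cdc25b), while Mki67 lay outside it. Top2a, in the same group as Mki67, fell by 0.70 on the log2 scale, and Smc4 fell by 0.40.

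**Figure D4:**
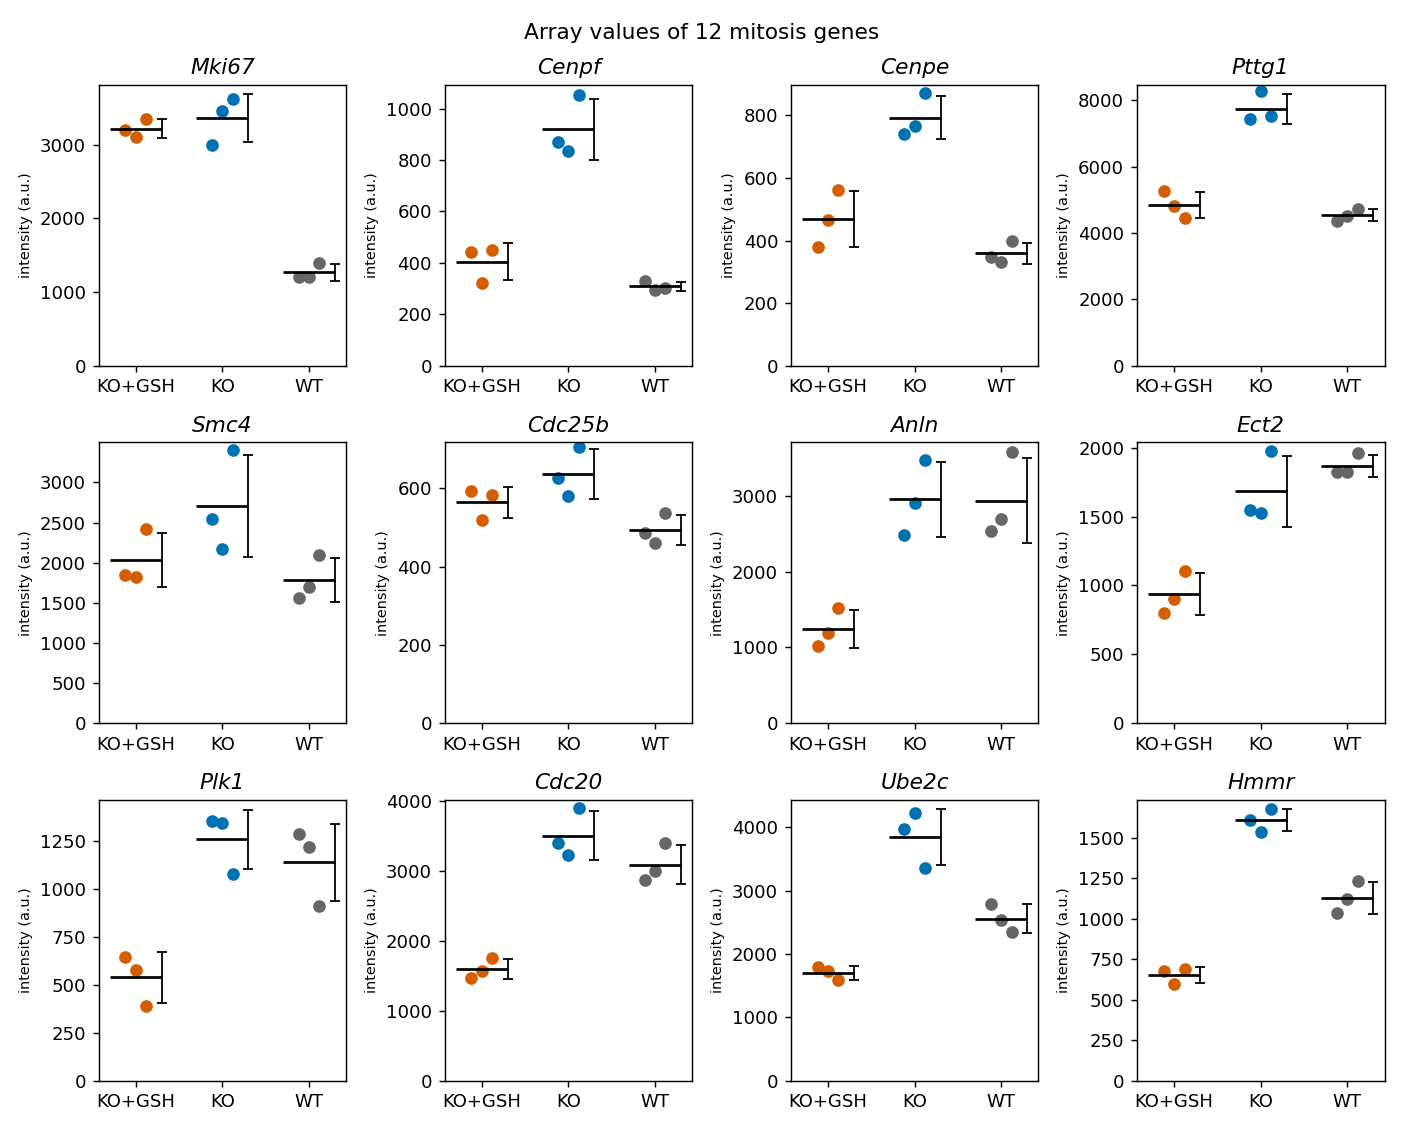
Intensity of 12 mitosis genes on each array (linear axis, 1 dot per array, with the mean and SD of 3 arrays) in Nrf2-/- cells with GSH, Nrf2-/- cells and Nrf2+/+ cells. The Mki67 dots overlap between both Nrf2-/- groups and are lower in Nrf2+/+ cells, whereas Hmmr, Plk1, Anln and Cdc20 are lowest with GSH.

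GSH-supplemented Nrf2-/- cells were last set against Nrf2+/+ cells. This comparison shares arrays with the other 2, so its values are given side by side with theirs and are not separate evidence. Mitosis genes were mostly lower: 26 of 39 were lower, 3 higher and 10 not called, against 22.3% of all probe sets called lower, 22.5% higher and 44.7% in all. The median log2 change was -0.41, against 0.02 over all probe sets. Arrays did not overlap with GSH lower for 23 genes, against 21.1% of all probe sets, and with GSH higher for 1 gene, against 22.3%. Centring each array on its median put the median of all probe sets at -0.13 and that of the mitosis genes at -0.56.

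Anln was the lowest, at 1019, 1189.6 and 1513 in Nrf2-/- cells with GSH, against 2533, 2692 and 3573 in Nrf2+/+ cells (-1.24, SE 0.082, adjusted p = 2.6e-07). Plk1 followed at 648, 578 and 391 with GSH, against 1287, 1219.6 and 912 in Nrf2+/+ cells (-1.10). Ect2 read 803, 905 and 1105 with GSH, against 1822, 1822 and 1963 in Nrf2+/+ cells (-1.01). No array overlapped in these 3 genes, of which 2 belong to cytokinesis. Cdc20 changed by -0.96, Cenpa by -0.93 and Kif2c by -0.82, all called lower. By its brightest probe set not ending in _x_at, Kif2c changed by -0.21 and was not called (adjusted p = 0.18). Its remaining kept probe set, which does not end in _x_at either, was called lower (-0.53, adjusted p = 0.0032, limma). The third cytokinesis gene, Racgap1, was called at -0.31 (adjusted p = 0.044), and kept that call in 7 of 22 alternative analyses (adjusted p up to 0.18). Its other kept probe set was called lower at -0.81 (adjusted p = 5.8e-05, limma) without overlap. Of the 26 genes called lower, 8 kept the call in all 22, namely Anln, Aurka, Cdc20, Cenpa, Ect2, Hmmr, Plk1 and Ttk. The submitters' 1.5-fold rule, 1 of the 22, called 9 lower, so at most 9 could keep the call in all.

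The 3 genes called higher were Mki67, Cenpf and Cenpe. Mki67 was 1.35 higher on the log2 scale (SE 0.069, adjusted p = 3.9e-08), and all its arrays with GSH lay above all those of Nrf2+/+ cells. It was the 1 gene whose groups were apart in that direction. Cenpf was higher by 0.37 (SE 0.14, adjusted p = 0.043) and Cenpe by 0.37 (SE 0.11, adjusted p = 0.017), and for both the arrays overlapped. Without Nrf2+/+ array 4, without Nrf2+/+ array 5 or without GSH array 4 (numbered as in the labels), 1 gene was called higher in place of 3. Across the 22 alternatives Mki67 kept its call in all, Cenpe in 14 (adjusted p 0.0042 to 0.2) and Cenpf in 7 (adjusted p 0.0088 to 0.23). The 10 genes not called included Pttg1 (0.10), Cdc25b (0.19) and Smc4 (0.19). The 2 further probe sets of Smc4 were called higher here (0.55 and 0.49), and neither was called between the Nrf2-/- groups (-0.18 and -0.28).

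Taking the 3 comparisons side by side by the chosen probe sets, 14 genes were higher in Nrf2-/- than in Nrf2+/+ cells and lower with GSH than in either other group. They were Birc5, Bub1, Bub1b, Ccna2, Ccnb2, Cdc20, Cdca8, Cdk1, Hmmr, Kif20a, Kif2c, Top2a, Tpx2 and Ube2c. The other kept Hmmr probe sets were not called between Nrf2-/- and Nrf2+/+ cells (0.11, 0.15 and 0.27). Another 11 were not called between Nrf2-/- and Nrf2+/+ cells but were lower with GSH than in both, namely Anln, Aurka, Cenpa, Ect2, Kif4, Mad2l1, Nek2, Plk1, Prc1, Racgap1 and Ttk. A dimmer Prc1 probe set was called higher in Nrf2-/- than in Nrf2+/+ cells (0.47, adjusted p = 0.0084, limma). A further 5 were higher in Nrf2-/- cells and lower with GSH than without, with no call between GSH-supplemented and Nrf2+/+ cells (Bub3, Kif11, Nusap1, Pttg1 and Smc4). Cdc25c, Espl1 and Incenp were called in no comparison by these probe sets. A dimmer Incenp probe set was called higher in Nrf2-/- than in Nrf2+/+ cells (0.39, adjusted p = 0.013, limma). It was called lower with GSH than without (-0.37, adjusted p = 0.014), while another kept Incenp probe set was called in no comparison. A dimmer Cdc25c probe set was called lower with GSH than without (-0.70, adjusted p = 0.047). By group means, Nrf2-/- cells were highest for 37 genes and Nrf2+/+ cells for 2, Kif23 and Ect2. Nrf2-/- cells with GSH were lowest for 31 genes. Nrf2+/+ cells were lowest for the other 8, which were Mki67, Cenpe, Cenpf, Cdc25b, Cdc25c, Bub3, Pttg1 and Smc4.

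To show each gene against its set, the median log2 intensity of the other 38 mitosis genes on the same array was subtracted. This measure also removes any difference in scale between arrays. It describes the same arrays and was not tested. Relative to the others, Mki67 was higher by 1.13 in Nrf2-/- cells and by 1.90 in Nrf2-/- cells with GSH, each against Nrf2+/+ cells. Cenpf was higher by 1.26 in Nrf2-/- cells and by 0.92 in Nrf2-/- cells with GSH. For Cenpe the differences were 0.84 and 0.92. The other 36 genes ranged from -0.44 (Ect2) to 0.49 (Pttg1) in Nrf2-/- cells and from -0.70 (Anln) to 0.74 (Cdc25b) in Nrf2-/- cells with GSH, so all 3 lay above the rest in both. Below Cenpe and Cenpf with GSH, the nearest genes were Cdc25b at 0.74, Smc4 at 0.73 and Pttg1 at 0.64.

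**Figure D5:**
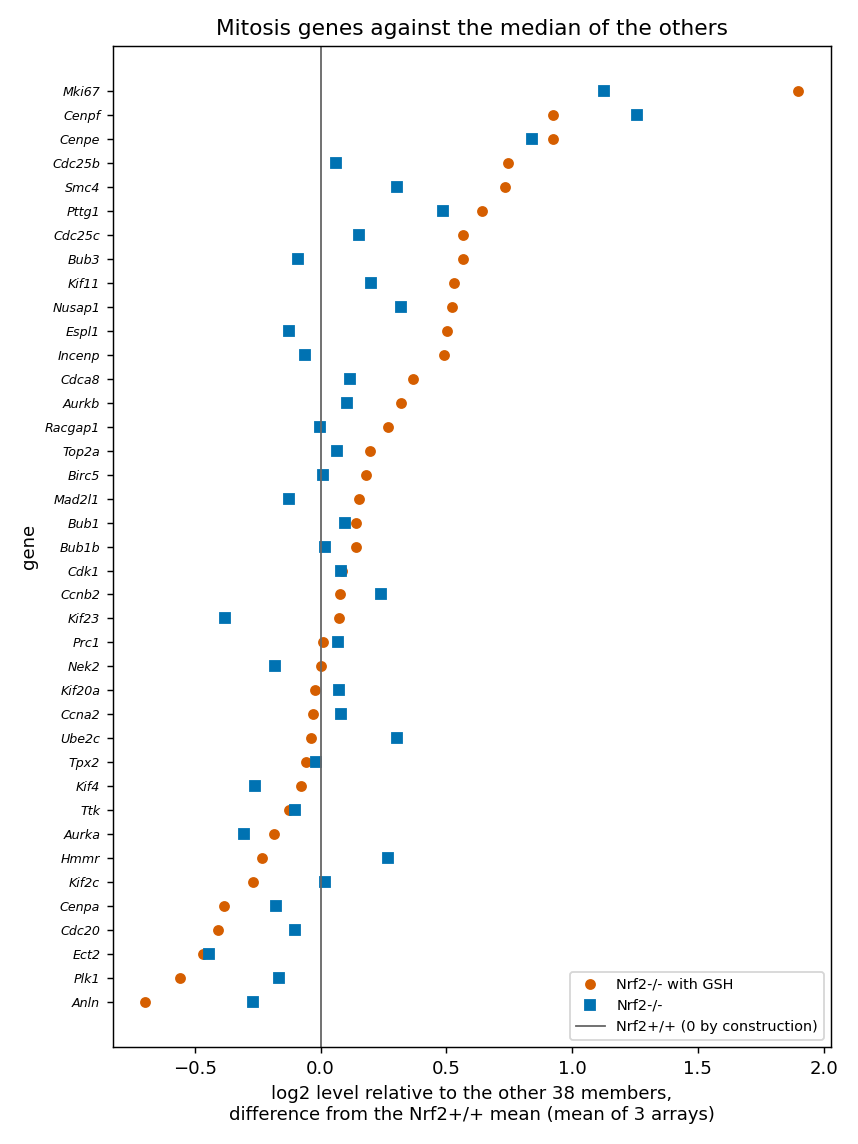
Log2 intensity of each mitosis gene relative to the median of the other 38 on the same array, as the difference of group means from Nrf2+/+ cells, for Nrf2-/- cells with GSH and for Nrf2-/- cells. Mki67 stands at 1.90 with GSH and 1.13 without, and Cenpf and Cenpe lie above the other 36 genes in both groups.

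The genes that departed were also read by their dimmer probe sets. Mki67 had 1 probe set only. The second Cenpe probe set lay below the filter and was fitted without it. It changed by 1.22 between Nrf2-/- and Nrf2+/+ cells (adjusted p = 0.016), and by -0.56 with GSH (adjusted p = 0.24). The 2 dimmer Cenpf probe sets were not called in any comparison. For Nrf2-/- against Nrf2+/+ cells, the brighter of these changed by 0.70 (adjusted p = 0.13) and the dimmer by 1.48 (adjusted p = 0.17). For GSH against no GSH they changed by -0.10 and by -1.48. The Cenpf calls therefore rest on its brightest probe set. Over all mitosis genes, 29 further probe sets of 19 genes passed the filter, and 27, 28 and 23 of them had the same sign as the chosen one in the order in which the comparisons are given above. None was called in the opposite direction. Of the 29, 10 were called higher in Nrf2-/- than in Nrf2+/+ cells, against 14.6% of all probe sets. With GSH against without, 20 were called lower, against 17%. With GSH against Nrf2+/+ cells 12 were lower and 2 higher, against 22.3% and 22.5%. The called genes with another probe set of opposite sign were Bub3 (-0.07) and Top2a (-0.01) for Nrf2-/- against Nrf2+/+, and Tpx2 for both GSH comparisons, at 0.03 and 0.19. A dim Cenpa probe set, noticed after its values were seen, fell by 2.67 in Nrf2-/- cells against Nrf2+/+ cells (adjusted p = 0.0033), unlike the chosen Cenpa probe set. Names ending in _x_at or _s_at, which mark probes that may match several transcripts, stood for 5 genes each.

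A wider list of 109 other mitosis genes, 106 of them kept, was examined for the same comparisons. Between Nrf2-/- and Nrf2+/+ cells 42 were higher (39.6%) and 3 lower (2.83%), against 14.6% each of all probe sets. The median log2 change was 0.23. The largest changes among those with the smallest p were Knl1, the kinetochore scaffold (1.20), and Ncapg2, a condensin II subunit (1.15). Like Cenpe and Cenpf, both were also called higher with GSH than in Nrf2+/+ cells (0.46 and 0.63). Over all probe sets with GSH against without, 18.4% were called higher and 17% lower. In the list 1 was higher (0.943%) and 62 lower (58.5%), with a median of -0.38. These included Spc25 of the NDC80 complex (-1.07), Kif22, a chromokinesin (-1.13), Ube2s, the ubiquitin chain-extending enzyme of the anaphase-promoting complex (-0.96), and Pbk, a mitotic kinase (-0.95). With GSH against Nrf2+/+ cells 10 were higher (9.43%, against 22.5% of all probe sets) and 40 lower (37.7%, against 22.3%), with a median of -0.19. Condensin and cohesin genes had 12 of 19 higher in Nrf2-/- cells (63.2%) and 13 of 19 lower with GSH (68.4%). Of 17 anaphase-promoting complex genes, 3 were higher and 2 lower in Nrf2-/- cells, near the 14.6% of all probe sets called in each direction, and 7 were lower with GSH, against 17% of all probe sets.

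For genes of the preceding phase the medians had the same signs and were smaller. Of 36 genes for G1/S and DNA replication, 34 were kept. In Nrf2-/- against Nrf2+/+ cells 13 were higher (38.2%) and 0 lower, against 14.6% each of all probe sets. The median log2 change was 0.16. Tk1, the S-phase thymidine kinase, changed by 0.58 and Pcna, the replication clamp, by 0.42. With GSH against without 0 were higher and 18 lower (52.9%, against 17% of all probe sets), with a median of -0.29. Tk1 changed by -0.84 and Prim1, a primase subunit, by -0.80, while Pcna changed by -0.0037 (adjusted p = 0.98). With GSH against Nrf2+/+ cells 3 were higher (8.82%, against 22.5% of all probe sets) and 12 lower (35.3%, against 22.3%). The median was -0.12, and Pcna was among the 3 (0.42).

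Markers of other cell types moved in the same comparisons. Over all probe sets, 14.6% were called higher and 14.6% lower in Nrf2-/- against Nrf2+/+ cells. For GSH against without, these shares were 18.4% and 17%. Of 16 fibroblast and mesenchymal markers 15 were kept, of which 12 were higher and 1 lower in Nrf2-/- against Nrf2+/+ cells, and 0 higher and 13 lower with GSH against without. Their summed intensity was 90300 to 105706 in Nrf2-/- cells with GSH, 161498 to 218046 in Nrf2-/- cells and 135258 to 149252 in Nrf2+/+ cells, so it had the same order as the mitosis genes. All 7 general epithelial markers were lower in Nrf2-/- than in Nrf2+/+ cells and higher with GSH than without, and their sums were 51469 to 53524 in Nrf2-/- cells with GSH, 11961 to 13179 in Nrf2-/- cells and 35760 to 38403 in Nrf2+/+ cells. Of 12 type I and transitional epithelial markers, which include Krt8 and Krt18 of the general list, 0 were higher and 11 lower in Nrf2-/- cells. With GSH against without, 9 of these were higher and 0 lower. Of 16 macrophage markers 13 were higher and 2 lower in Nrf2-/- cells, and 10 higher and 2 lower with GSH, with sums of 145671 to 175210 in Nrf2-/- cells with GSH, 111919 to 133967 in Nrf2-/- cells and 70176 to 73391 in Nrf2+/+ cells. The macrophage sum was lowest in Nrf2+/+ cells, as was Mki67, and highest with GSH, where 31 of the mitosis genes were lowest. Type II markers kept by the filter numbered 9 of 12. Of these, 2 were higher and 2 lower in Nrf2-/- cells (22.2% each), and 6 were higher with GSH (66.7%). Of 6 lymphocyte markers 1 was kept and was called in no comparison, and of 6 endothelial markers 2 were lower in Nrf2-/- cells (33.3%). The part of these cell types in the mitosis gene results was not tested.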

How the data were processed

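Values are the linear intensity of each probe set as the authors deposited it, and every array had a 2% trimmed mean of 500. The summarising software is not given in the sources used. Of 45101 probe sets, 64 controls were left out. The 2 values at 0 were set to 0.1 before taking log2, and probe sets with a mean log2 intensity below the median were left out, which kept 22519 (threshold at a geometric mean of 116). The control level of an array was taken from 27 control probe sets, at their 95th percentile, and ran from 43.4 to 82.9. Symbols came from the platform annotation, in which 34945 probe sets had 1 symbol.

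A single limma model (version 3.58.1, R 4.3.3) covered all 9 arrays, with terms for group and set, moderated variances with an intensity trend, and Benjamini-Hochberg adjustment over all probe sets. The method was tested on simulated data. The 3 comparisons, the gene roles, the other lists and the alternatives were chosen with earlier results of these data known. Members named in each comparison were Mki67, Cenpf and Cenpe, the 6 with the largest and the 6 with the smallest change, those called against most others, and those whose probe sets disagreed. All others were accounted for by role, and of each related list at most 6 genes with the smallest p were named. Promoters shown were those of Mki67, Cenpe and Cenpf and of 3 genes with TTTGAA and the smallest p with GSH.

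The numbers 2, 3 and 4 in the labels are shared by Nrf2-/- arrays with and without GSH. Deviations from the group means of same-numbered arrays had correlations of 0.32, 0.29 and 0.67. As all exceed 0.1, these arrays were treated as pairs in the alternative with the replicate number as a block. The main model has no term for the pairs. Crossed pairs within set 2 gave 0.24 and 0.39, so a shared number and a shared set cannot be told apart. Nrf2-/- and Nrf2+/+ arrays share 2 numbers, with correlations of 0.42 and -0.49, and were not taken as paired. Array correlations were 0.979 to 0.990 within a group and set, 0.950 to 0.968 within a group across sets, and 0.902 to 0.954 between groups in a set. Alternatives left out the set term, the filter, the trend or single arrays, or changed the normalisation, the floor, the call rule or the probe set per gene.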

Additional observations from a re-analysis of the deposited data

How the results depend on the processing

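Over 22 alternatives, of which the one avoiding probe sets ending in _x_at or _s_at was chosen after seeing the data and changed the probe set of 9 genes, 1 called change of a mitosis gene reversed. With that alternative Bub3 changed by -0.07 in Nrf2-/- against Nrf2+/+ cells (adjusted p = 0.76), against 0.19 by its brightest probe set, and its call there was kept in 8 of the 22. For single named genes 748 values kept their direction and side of the threshold, 46 fell short of it, 6 newly passed it and 14 uncalled changes near 0 shifted. For Nrf2-/- against Nrf2+/+ cells the count called higher (23) became 11 with no set term, 13 with median centring and 4 by the fold rule, and the median of 0.35 became 0.26 with median centring. For GSH against Nrf2+/+ cells the count called higher (3) became 1 with no set term, with set 2 arrays only, with median centring and by the fold rule. There the count called lower (26) became 9 by the fold rule, and the median of -0.41 became -0.56 with median centring. The fold rule demands at least 1.5-fold in at least 6 of the 9 pairs of arrays between groups, and an unadjusted limma p under 0.05. Its demand on fold is one that fewer genes meet by its construction, and its calls over all probe sets were not counted. The cause of the other shifts was not tested. Leaving out each array in turn gave 18 to 25 genes higher and 0 to 0 lower for Nrf2-/- against Nrf2+/+ (median 0.31 to 0.35), 0 to 0 higher and 31 to 33 lower for GSH against no GSH (median -0.77 to -0.73), and 1 to 3 higher and 23 to 26 lower for GSH against Nrf2+/+ (median -0.44 to -0.39).

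With the replicate number as a block in place of the set, 32 genes were lower with GSH than without, where the numbers pair the arrays, and Bub3 alone lost its call there. In the comparisons with Nrf2+/+ cells the block joins arrays numbered 3 and arrays numbered 4, which were not taken as paired. Those numbered 4 lie in different sets. There 14 genes were higher in Nrf2-/- than in Nrf2+/+ cells, and with GSH against Nrf2+/+ 2 were higher and 19 lower. Over all probe sets the block called 3253 for Nrf2-/- against Nrf2+/+, 5824 for GSH against no GSH and 6586 for GSH against Nrf2+/+, against 6560, 7964 and 10074 with the set term and 2774, 4574 and 6181 with no set term. Of the 33 genes lower with GSH than without, 24 kept that call in all 22 alternatives, and Mki67 was called there in none (adjusted p 0.24 to 0.98). The fold rule, 1 of the 22, called 25 lower there. All chosen probe sets were above the control level on all arrays, so dimness limits only the probe sets below the filter.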
